A study of Caenorhabditis elegans with 2 samples.

Results

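The genes described here were 10 Caenorhabditis elegans genes for the COMPASS-type histone methyltransferase complexes and proteins linked to them, out of 19973 nuclear protein-coding genes. They were the methyltransferase genes set-2 and set-16, the subunit genes wdr-5.1, ash-2, rbbp-5, cfp-1 and pis-1, the demethylase gene utx-1, the host cell factor gene hcf-1 and the taspase gene tasp-1. They were chosen by gene name with their RCOR-1::eGFP peaks already known, so their peaks and signals are a description with no test. Both samples came from whole young adult worms of strain RW12222, aged 65 hours and synchronised by starving freshly hatched larvae. All animals carried the CRISPR insertion st12222, which adds TY1, EGFP and 3xFLAG tags to rcor-1 at its own locus. Anti-GFP precipitation was used to recover the chromatin, and the series holds 2 biological replicates of this 1 condition. Whole animals mix all tissues, so a peak cannot be placed in a cell type. A control experiment named in the labels was not analysed here.

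COMPASS complexes place methyl groups on lysine 4 of histone H3, a mark of the promoters of active genes. In the worm, SET-2 is the SET1-type enzyme and SET-16 the MLL-type enzyme, and both work with a shared core that includes WDR-5.1, ASH-2 and RBBP-5. CFP-1 belongs to the SET-2 complex. UTX-1, which removes methyl groups from lysine 27 of histone H3, is found with SET-16. Taspase is a protease that in mammals cleaves the MLL1-type methyltransferases and the large subunit precursor of the general factor TFIIA. RCOR-1 belongs to the CoREST family, which in animals joins histone deacetylases with LSD1-type enzymes that remove methyl groups from lysine 4 of histone H3.

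Strong RCOR-1::eGFP peaks lay just upstream of tasp-1, set-16 and set-2, a weak one lay inside hcf-1, and the other 6 genes had only candidate regions. A gene was taken to carry a peak if a summit, the deposited position of highest enrichment, lay between 1000 bp upstream of its 5' end and its gene end. The conservative list, made between both replicates at an irreproducible discovery rate (IDR) of 0.01 or less, placed such a summit at 4 of the 10 genes, against 10.2% of all protein-coding genes. In this list the IDR is low where a region ranks high, and alike, in both replicates. Nothing is read from this count, since the genes were chosen with it known. Their windows were also longer, with a median of 6377 bp, against 3027 bp over all genes. Of the 10 genes, tasp-1, set-16 and set-2 and no other had a summit in each of the other 3 thresholded lists. The other list of the whole series held a summit at 10.5% of all genes, that of replicate 1 alone at 7.44% and that of replicate 2 alone at 6.99%. Summits within 500 bp of the 5' end also gave these 3 genes, against 6.64% of all genes.

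The sequences at the 3 upstream peaks, and at the utx-1 region that ranked just outside the threshold, are shown because they are the sites the results turn on. Each was read on the strand of the gene in WBcel235, the assembly of ce11, 5' to 3', and leaves out any base that an annotated exon covers. Capitals mark matches to the 16 short sequences searched on both strands. The tasp-1 stretch is chrIII:10759127-10759306 (plus strand, 180 bases, summit at base 122). That of set-16 is chrIII:13643612-13643851 (plus strand, 240 bases, summit at base 127). That of set-2 is chrIII:4930335-4930601 (minus strand, 267 bases, summit at base 127), and that of utx-1 is chrX:8556743-8557022 (plus strand, 280 bases, summit at base 141).
tasp-1: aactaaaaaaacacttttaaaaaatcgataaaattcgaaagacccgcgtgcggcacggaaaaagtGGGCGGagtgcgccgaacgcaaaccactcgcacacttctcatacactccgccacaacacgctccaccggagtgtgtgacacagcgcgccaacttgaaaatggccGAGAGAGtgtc
set-16: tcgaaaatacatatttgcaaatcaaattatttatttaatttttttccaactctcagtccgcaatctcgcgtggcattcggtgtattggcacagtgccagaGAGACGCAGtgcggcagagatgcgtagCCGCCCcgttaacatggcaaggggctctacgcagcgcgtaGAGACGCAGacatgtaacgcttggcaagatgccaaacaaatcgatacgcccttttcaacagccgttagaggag
set-2: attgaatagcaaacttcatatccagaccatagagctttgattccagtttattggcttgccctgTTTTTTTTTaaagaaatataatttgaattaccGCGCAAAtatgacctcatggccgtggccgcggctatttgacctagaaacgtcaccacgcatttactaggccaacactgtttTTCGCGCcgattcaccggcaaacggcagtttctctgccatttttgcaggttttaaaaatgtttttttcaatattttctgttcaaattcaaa
utx-1: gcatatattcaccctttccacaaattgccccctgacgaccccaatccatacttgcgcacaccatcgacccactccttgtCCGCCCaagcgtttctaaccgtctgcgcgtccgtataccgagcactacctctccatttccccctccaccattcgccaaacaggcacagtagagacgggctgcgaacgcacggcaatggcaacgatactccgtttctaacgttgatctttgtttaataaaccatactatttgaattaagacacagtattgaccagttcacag

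In the set-16 stretch the capitals GAGACGCAG, the other strand of CTGCGTCTC, occur on either side of the summit, centred 22 bp before it and 45 bp after it. CTGCGTCTC was in 8.99% of the 2324 nuclear conservative peaks and in 2.39% of the 42691 candidate regions that missed the IDR threshold. The 16 sequences were chosen with earlier results of these data known, so this and the shares below are a description with no test. CCGCCC, the other strand of GGGCGG, lies 4 bp after the set-16 summit, while GGGCGG lies 54 bp before the tasp-1 summit and 58 bp before that of utx-1 on the other strand. GGGCGG, the core of the GC box bound by SP1-type factors in mammals, was in 11.5% of the peaks and 6.74% of the other candidate regions. The set-2 stretch holds TTCGCGC 53 bp after the summit and GCGCAAA, the other strand of TTTGCGC, 28 bp before it. These E2F-type sequences were in 7.10% and 6.54% of the peaks, against 2.34% and 3.29% of the other candidate regions. A run of T in the set-2 stretch matched TTTTTTTT, which was in 18.5% of peaks and 21.0% of the other candidate regions. The tasp-1 stretch holds GAGAGAG near its end, 51 bp after the summit, which was in 14.8% of peaks and 6.55% of the other candidate regions. A TGTCTC match runs from the last 4 bases of this stretch, left in lower case, across the annotated 5' end. TGTCTC was in 18.1% of the peaks and 13.0% of the other candidate regions, and the hcf-1 peak held it too. TGATAA, found in 15.5% of peaks and 21.4% of the other candidate regions, was in the hcf-1 peak alone among the 4. Both hcf-1 matches lay at the edges of the peak, TGTCTC 134 bp after the summit and TGATAA 136 bp before it, so neither counts within 100 bp of the summit. None of the 16 sequences occurred in all 3 upstream peaks, and GGGCGG was the only one found at both tasp-1 and set-16. No match in any of the 4 peaks was found for the E-boxes CACGTG and the related CACCTG, for the CRE-type sequence TGACGTCA, for CTTATCA as an extended GATA sequence, or for the splice-type sequence TTTTCAG. The same held for AAACCG, for the further sequence ACTACA and for the B box of tRNA genes. Each of these was in 1.12% to 16.5% of all nuclear peaks and 0.834% to 23.5% of the other candidate regions. Within 100 bp of the summit, G and C made up 54.7% of bases at tasp-1, 50.7% at set-16, 44.8% at set-2 and 42.3% at hcf-1. The median was 43.3% over all nuclear conservative peaks and 39.8% over the other candidate regions, so tasp-1 lay above the 90th percentile of the peaks (53.2%). The strongest regions of the other 6 genes ran between 34.8% at wdr-5.1 and 53.2% at utx-1.

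**Figure D1:**
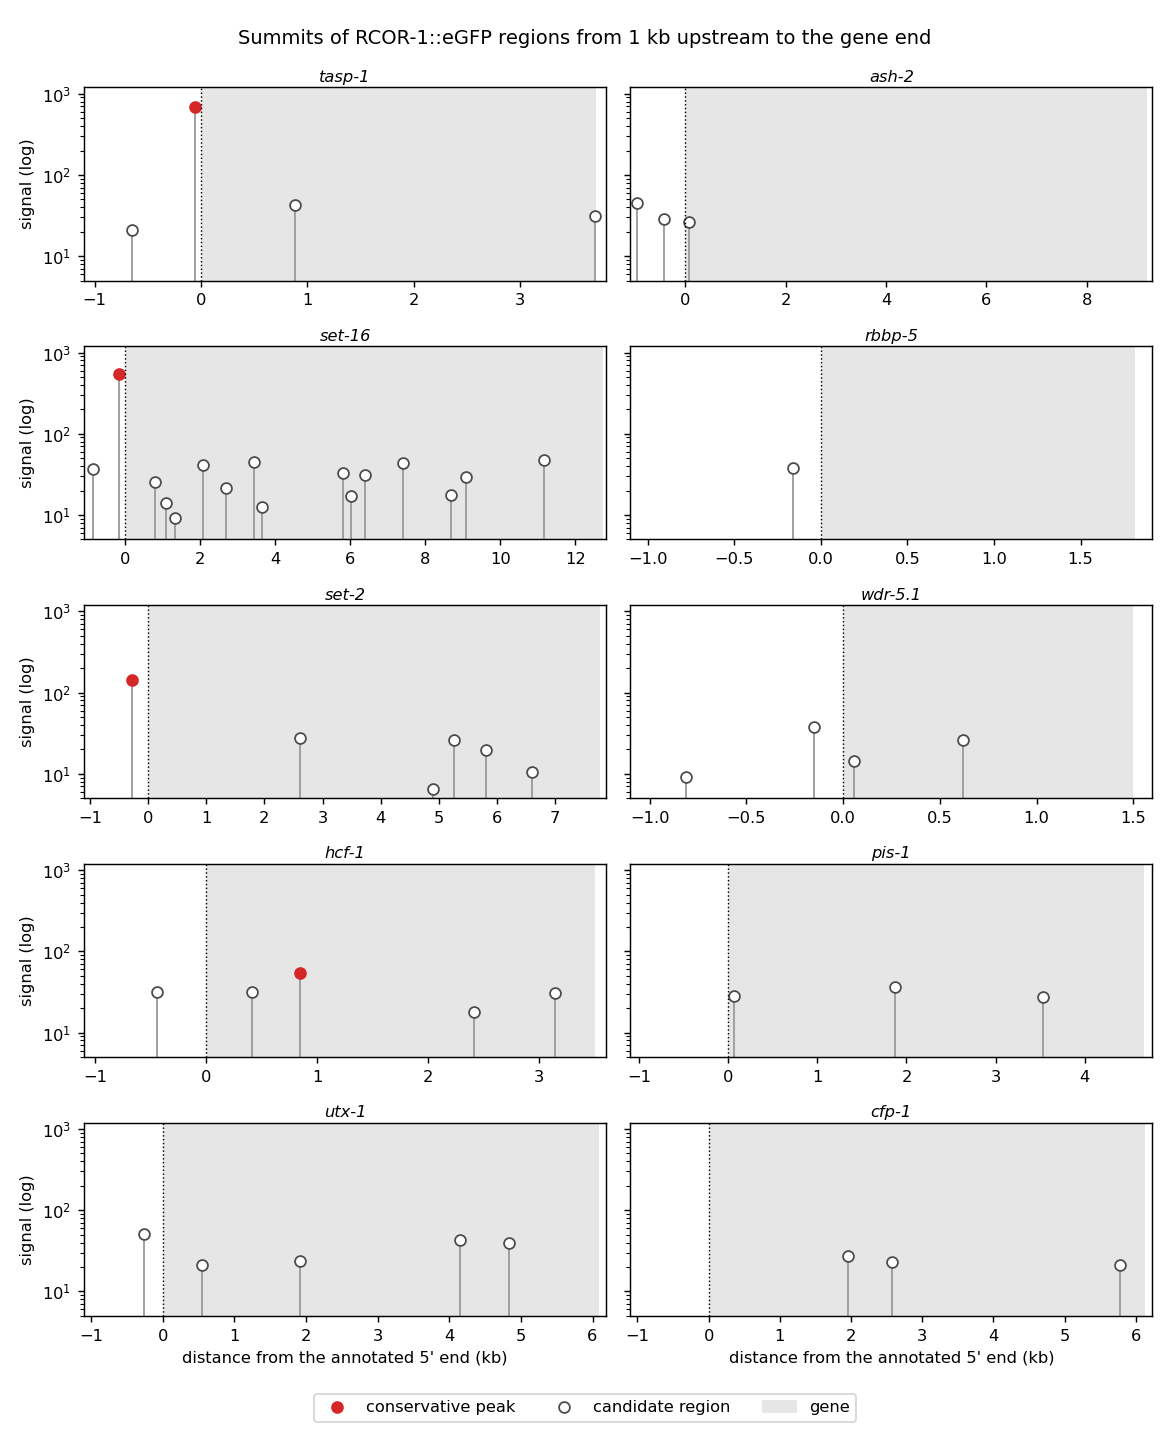
Every candidate region of the ranked list made between replicates in the windows of the 10 genes: distance of its summit from the annotated 5' end (kb) against its signal (authors' unit, log scale), filled where the region is in the conservative list, with the gene body shaded. The filled points of tasp-1, set-16 and set-2 stand just left of the 5' end, that of hcf-1 at 841 bp inside the gene, and the other 6 genes have open points only.

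The methyltransferase gene set-16 carried the stronger peak of the 2 enzyme genes. Its gene body lies on chromosome III (13643916 to 13656637, plus strand, ce11), and the conservative peak (13643612 to 13643851) had its summit 178 bp upstream of the 5' end in intergenic sequence. The signal, the authors' measure of strength in a unit the deposited notes do not define, was 547 for the conservative peak. Replicate 1 gave 252 at this site and replicate 2 gave 290. Each list has a scale of its own, so values are ranked within a list only. The peak was number 10 by signal among the 2324 nuclear peaks, between those nearest to C46C2.7 (611) and K08F11.1 (540), and had 6.06 times their median signal of 90.2. In the ranked list of replicate 1 it was number 22 of 37733 candidate regions and in that of replicate 2 number 35 of 32427. The summit also lay 168 bp upstream of drr-2, which encodes a protein with an RNA recognition motif and runs the other way, with its 5' end 346 bp from that of set-16. The peak lies between both 5' ends, and which of the 2 genes it belongs to cannot be told apart from these files. The set-16 window was the longest of the 10 (13722 bp) and held 1.17 candidate regions per kb, against 1.60 at wdr-5.1. Its 15 weaker candidate regions, the most of the 10 genes, reached a signal of up to 47.0, at 11172 bp inside the gene. The signal of the promoter region was thus 11.6 times that of the next region of the window.

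The SET1-type gene set-2 had a peak of lower rank, and no other gene had this summit within 1000 bp upstream of its 5' end. The gene lies on chromosome III (4922427 to 4930204, minus strand) and its peak at 4930335 to 4930614, with the summit 271 bp upstream of the 5' end in intergenic sequence. The conservative signal was 141, with 65.6 at the site in replicate 1 and 78.2 in replicate 2. This was number 437 of the 2324 nuclear peaks, stronger than 81.2% of them. In replicate 1 the region was number 466 and in replicate 2 number 524. The end of the upstream gene C26E6.12, on the same strand, overlaps the far edge of the peak. The next strongest region of the set-2 window had a signal of 27.6 at 2607 bp inside the gene, and the promoter region had 5.13 times that signal. Its immediate neighbours in rank had nearly the same signal, 142 for the one nearest to ndk-1 and 141 for the one nearest to F07C6.3.

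The core subunit genes carried no peak in any thresholded list. The strongest region of wdr-5.1, for the WD-repeat protein of the core, lay 150 bp upstream (III, 3704995 to 3705274) with a signal of 37.4 in the list made between replicates and an IDR of 0.838. Replicate 2 had an overlapping region with a signal of 30.8 and replicate 1 had none there, its strongest wdr-5.1 region being at -951 bp with 14.6. The rbbp-5 region, 163 bp upstream (II, 6097527 to 6097806), had a signal of 37.8 and an IDR of 0.656, with 20.1 in replicate 1 and 14.8 in replicate 2. That site was stronger than 82.8% of the candidate regions of replicate 1 but than only 23.6% of those of replicate 2. It also lay 70 bp upstream of tpp-2, the gene for tripeptidyl-peptidase 2, on the opposite strand. The strongest ash-2 region (II, 11978724 to 11979003, signal 45.2, IDR 0.712) was 974 bp upstream, inside a coding exon of the neighbouring gene Y17G7B.20. Replicate 2 had 38.6 there, and replicate 1 had no region at that site but one of 22.1 at 76 bp inside ash-2. These genes therefore had candidate regions whose place or rank differed between the replicates.

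Neither cfp-1 nor pis-1 had its strongest region upstream. CFP-1 is a CXXC-type zinc finger protein, a domain that in mammals binds unmethylated CpG. In the list made between replicates its gene had the weakest best region of the 10, with a signal of 27.3 and an IDR of 0.838. That region lay 1952 bp inside the gene, in an intron (chromosome IV, 14079247 to 14079526). Replicate 1 had 8.17 there and replicate 2 had 20.3, which were stronger than 6.4% and 59.0% of their candidate regions. The strongest cfp-1 region of replicate 1 lay elsewhere, 4796 bp inside the gene, with 14.7. The best region of wdr-5.1 was weaker in replicate 1 (14.6), and that of rbbp-5 in replicate 2 (14.8). No region of the list made between replicates lay within 500 bp of the cfp-1 5' end. The gene pis-1 encodes a PAX-interacting protein per its RefSeq product name. Its strongest region lay 1870 bp inside the gene in an intron (IV, 9794584 to 9794863) with a signal of 36.3 and an IDR of 0.383. Replicate 2 had 23.7 at this site, and replicate 1 had no region there.

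The demethylase gene utx-1 and hcf-1 stood on either side of the threshold. The utx-1 region (X, 8556743 to 8557022) had its summit 263 bp upstream in intergenic sequence, a signal of 50.4 and an IDR of 0.0166, just outside 0.01 in the list made between replicates. In the second ranked list of the series its IDR was 0.093. Its replicate signals were 23.3 in replicate 1 and 30.9 in replicate 2, and it passed in the list of neither replicate. The next region of utx-1, 4151 bp inside the gene, was nearly as strong, with a signal of 43.5. The hcf-1 region (IV, 7773294 to 7773573) had a signal of 54.4 and an IDR of 0.00939, just inside 0.01. Its replicate signals were 25.5 and 32.5, and neither replicate's own list held it. In that second ranked list the hcf-1 region had an IDR of 0.0231, and the other thresholded list did not hold it. HCF-1 is the worm homologue of host cell factor, which in mammals joins SET1 and MLL complexes. Unlike the 3 upstream peaks, the hcf-1 summit lay 841 bp inside the gene in a coding exon, and its signal was above those of only 7.1% of the nuclear peaks. It was also 977 bp upstream of swd-2.2, a gene for a WD-repeat protein named after the yeast COMPASS subunit Swd2, whose 5' end is 136 bp from that of hcf-1 on the opposite strand. The next strongest region of the hcf-1 window, 417 bp inside the gene, had a signal of 32.0.

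The protease gene tasp-1 had the strongest peak of the 10 and ranked number 2 of all 2324 nuclear peaks. It lies on chromosome III (10759307 to 10763021, plus strand), and the peak (10759127 to 10759370) had its summit 59 bp upstream of the 5' end in the Ensembl annotation. RefSeq starts the gene 78 bp further on, which puts the summit at -137 bp. The conservative signal was 688, which was 7.63 times that of the median nuclear peak, and the site had 295 in replicate 1 and 384 in replicate 2. In replicate 1 it was number 13 of the candidate regions and in replicate 2 number 19, mitochondrial regions included. Its neighbours in the nuclear list were the promoters of the ribosomal protein gene rpl-3 (904) and of cdc-48.1 (669). The divergent gene K01G5.10 starts 785 bp away and the summit was 726 bp upstream of it, so the peak was nearer to tasp-1. The next region of the tasp-1 window had a signal of 42.1, and the peak had 16.4 times that signal. Of 1823 protein-coding genes with a peak and at least 2 candidate regions, 16 had a higher ratio of the strongest to the next region, against 43 for set-16 and 314 for set-2. The median ratio was 8.38 over the 4 genes with a peak here, which were chosen with their peaks known, against 2.65 over those 1823 genes. Among these 4, hcf-1 had a ratio of only 1.70. Over the 9 of the 10 genes with at least 2 candidate regions the median was 1.59, against 1.41 over all 9332 such protein-coding genes.

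**Figure D2:**
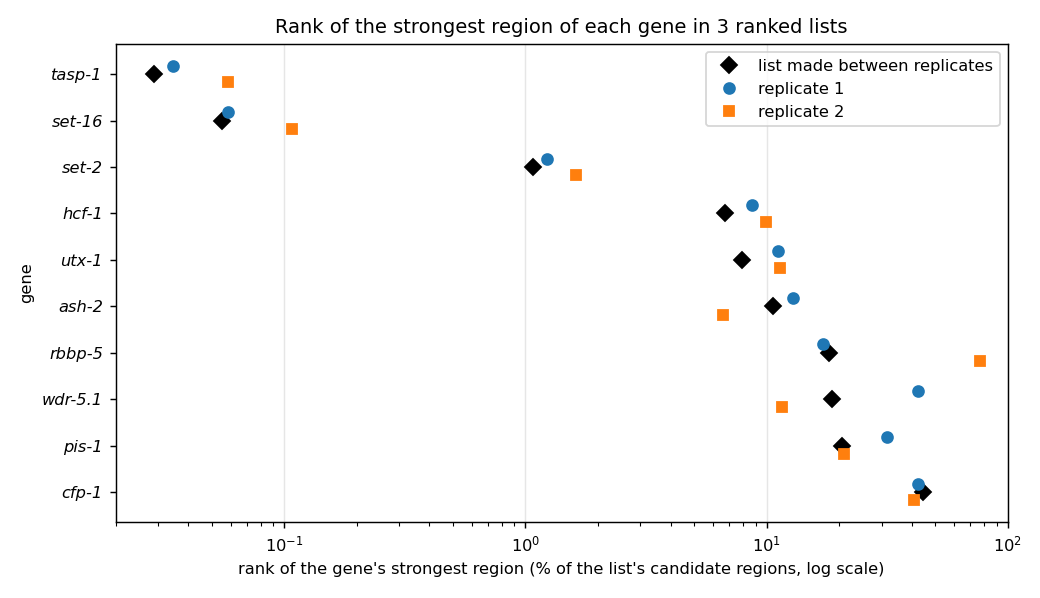
Rank of the strongest region of each gene, as a percentage of all candidate regions of the list (log scale, strongest at the left), in the list made between replicates and in the ranked lists of replicate 1 and replicate 2. In all 3 lists tasp-1, set-16 and set-2 come in this order and lie left of the other 7 genes, while the markers of rbbp-5 and wdr-5.1 lie far apart.

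Both replicates placed the upstream summits within a few bases of each other. The distance between the summits of replicates 1 and 2 was 4 bp at tasp-1, 3 bp at set-16 and 7 bp at set-2. Over the 2271 nuclear conservative peaks with a region in both replicates the median distance was 21 bp, and over the 232 such peaks among the 233 strongest it was 11 bp. At hcf-1 the distance was 71 bp and at utx-1 100 bp, beyond the upper quartile of 44 bp over all nuclear peaks. The rbbp-5 summits were 4 bp apart although that region missed the threshold widely. The tasp-1 and set-16 peaks were 244 and 240 bp wide, and 13.9% of nuclear peaks were narrower than the usual 280 bp, which set-2 and hcf-1 had. In the list made between replicates, the strongest region lay within 500 bp upstream of the 5' end in 6 of the 10 genes. These were tasp-1, set-16, set-2, utx-1, wdr-5.1 and rbbp-5. Of the 12924 protein-coding genes with a candidate region, 26.8% had their strongest one there. Among genes with a conservative peak it was so in 3 of the 4 here, chosen with their peaks known, and in 55.2% of all 2045.

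**Figure D3:**
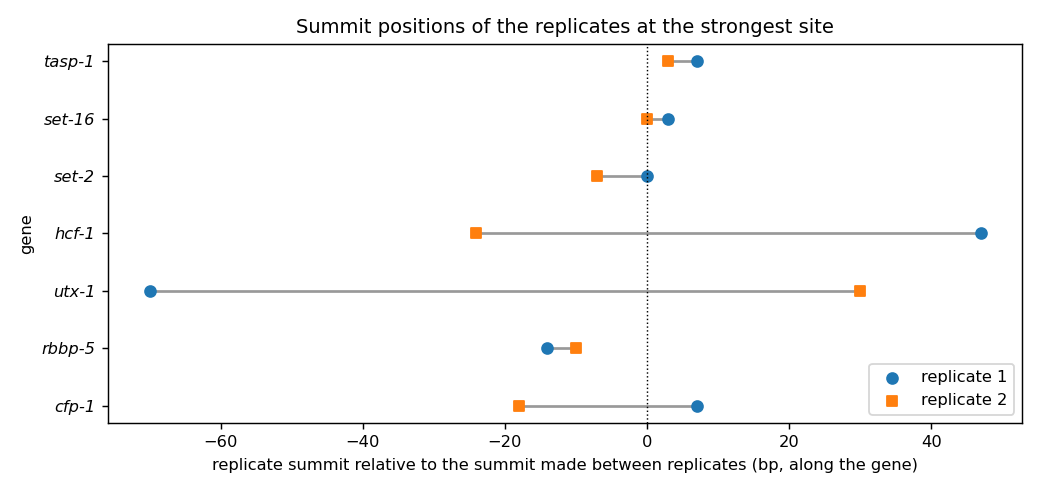
Summits of replicate 1 and replicate 2 at the strongest site of the 7 genes with a region in both, in bp relative to the summit of the list made between replicates and along the gene. The markers of tasp-1, set-16, set-2 and rbbp-5 stand 3 to 7 bp apart, those of hcf-1 71 bp and those of utx-1 100 bp apart.

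Among 34 further genes of these pathways, 12 carried a conservative peak, against 10.2% of all protein-coding genes. Nothing is read from this count either, since these genes were also chosen with earlier results of these data known. Their window lengths are not given here. None of the 12 reached the signals of tasp-1 or set-16. The strongest was at pqn-51, for the large subunit of TFIIA, a substrate of taspase in mammals. Its peak had a signal of 220, with 85.8 for replicate 1 and 130 for replicate 2, lay 176 bp upstream and was shared with K11D12.14. The other TFIIA gene listed, gtf-2A2, had no candidate region. Among other SET domain genes 4 of 8 carried a peak: set-26, whose protein binds methylated lysine 4 of histone H3 (signal 129, at -561 bp, shared with tsr-2), mes-2 of the Polycomb-type complex (68.6), met-1 (65.3) and set-17 (55.7). The set-17 summit lay 1330 bp inside the gene, and none of the other thresholded lists held a peak at set-17. Replicate 1 had no region at that site and replicate 2 had 30.1. Of 9 demethylase genes 1 carried a peak, against 10.2% of all genes. This was jmjd-1.2 (161, at -476 bp, shared with mrps-21 and F29B9.11). Candidate regions without a peak were found at spr-5 (36.1), lsd-1 (22.1), amx-1 (33.8) and rbr-2 (51.7). Their products act on lysine 4 of histone H3 or are related to such enzymes. Of the remaining COMPASS core genes wdr-5.3 had a peak shared with mre-11 (66.9), whereas dpy-30 had a candidate region of 57.6 and wdr-5.2 one of 22.7. Among genes linked to HCF-1, the 14-3-3 gene par-5 and the sirtuin gene sir-2.1 carried peaks. The strongest of 3 peaks at par-5 (106) lay 1162 bp inside the gene, and the sir-2.1 peak (68.8) lay 30 bp upstream. The other 3 of the 12 genes were mrg-1 (143, shared with spcs-2), lin-59 (81.1) and the deacetylase gene hda-1 (68.2, at -937 bp, shared with ril-1). The strongest candidate regions without a conservative peak were at ogt-1 (63.6), atf-7 (58.4), dpy-30 and ftt-2 (56.1), the last of which was in the other list of the series. In the lists of single replicates the count was 6 for replicate 1, against 7.44% of all genes, and 7 for replicate 2, against 6.99%. The genes pqn-51, jmjd-1.2, mrg-1, set-26 and par-5 were in both. The 7 include daf-16, a gene linked to HCF-1 that had no conservative peak but was also in the other list of the series.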

How the data were processed

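Chromatin immunoprecipitation with sequencing was done on 2 biological replicates, sonicated to 200 to 800 bp per the labels. Peak lists are on ce11, per the deposited file notes, and which aligner and caller were used is not given in the sources used here. Region signal is the authors' deposited value in an undefined unit. Ranked lists carry the −log10 of the IDR as deposited, and no region of a thresholded list had an IDR above 0.01. Read depth is unknown, so single signals have no interval. The replicate columns inside the ranked list made between replicates (2) have no sample name and were not used. Gene models were Ensembl release 115 on WBcel235, and no region ended past a chromosome of that assembly. Sequences and the RefSeq 5' ends came from RefSeq on the same assembly. Percentiles give the share of a list's regions with a lower signal. The 16 sequences were searched on both strands of whole regions, and CTTATCA overlaps TGATAA. The members, gene lists and sequences were chosen with earlier results of these data known. Named genes were the 10 members, genes with a member summit in their 1000 bp upstream, pathway genes with a peak, the 4 strongest without, and neighbours in rank of the 3 strongest peaks. No test was run. Window counts were checked on planted summits. Alternatives were other lists, windows, thresholds and overlap rules. Analysis used Python 3.11.15, pandas and matplotlib.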

Additional observations from a re-analysis of the deposited data

How the results depend on the processing

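The count of 4 genes with a peak was 3 in the other thresholded list, in each replicate's own list (without replicate 1, and without replicate 2), among peaks at or above the median signal, with summits within 500 bp of the 5' end, and from 1000 bp upstream to 100 bp downstream. In these settings hcf-1 was the gene lost. With only the nearest 5' end counted, the number was also 3, because the set-16 peak went to drr-2. Any overlap of peak and window gave 4, against 11.1% of all genes, and an IDR of 0.05, chosen after seeing the data, gave 5 with utx-1, against 14.1% of all genes. The 3 genes in both replicates' lists, against 5.26% of all genes, stayed at 3 with an overlap of 50% of the shorter peak, peaks above the median and the 500 bp window. The share of all genes, 10.2%, was 5.77% with peaks at or above the median signal and 6.64% with the 500 bp window. It was 7.78% from 1000 bp upstream to 100 bp downstream, and 7.34% with only the nearest 5' end counted. The count of 12 pathway genes was 5 with peaks at or above the median, 6 in the list of replicate 1 and 7 in that of replicate 2. The shares of all genes in these settings were 5.77%, 7.44% and 6.99%. Fewer peaks pass in the single-replicate lists, and the 7 include daf-16, which had no conservative peak. The strongest rbbp-5 region differed between lists: that upstream of the gene was stronger than 81.9% of regions in the list made between replicates, while the second ranked list did not hold it, and its strongest there was another region, inside the gene (signal 20.9, stronger than 33.0%). No depth is known, so a gene without a peak is one where none was detectable here.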
